A study of Mus musculus with 5 samples.

Results

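The levels of 10 genes of stratified squamous epithelium, 8 of its differentiated layers and 2 of its basal layer, were followed across 5 pools of whole-lung RNA. The genes were the keratins Krt4 and Krt13, the keratinocyte differentiation-associated peptide Krtdap, the small proline-rich proteins Sprr3 and Sprr1a, loricrin (Lor), the late cornified envelope protein Lce3c and the metallothionein Mt4, with the basal keratins Krt5 and Krt14. They were chosen by their intensities in these same arrays, in which some had stood out between pools, so their levels and ratios are given as a description. All probe sets that the platform annotation maps to 1 of these genes and to no other were taken, 15 of the 20380 probe sets that name 1 gene, and these 10 are among 12393 genes so named. Of the 15, 12 were above the noise floor in at least 1 pool and 3 were above it in none. A further probe set names Krt14 together with Krt17 and was left out.

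Raised right ventricular pressure, 50 ± 8 mmHg, is given for 2 pools, the kind of error not being stated. The induced pool came from SM22-tet-BMPR2delx4+ mice on doxycycline, in whose smooth muscle the drug turns on, through the SM22 promoter, a BMPR2 (a bone morphogenetic protein receptor) that acts as a dominant negative. The uninduced pool came from the same genotype without doxycycline. For hypoxia, 8-week-old FVB/N animals had been kept 4 weeks in low oxygen, and the wild-type pool was of FVB/N animals of the same age. The SM22-rtTA pool came from mice that carry the doxycycline-dependent activator alone and received the drug. For the transgenic pools the titles state 8 weeks, which may be an age or a time on treatment, and no strain. The uninduced, wild-type and SM22-rtTA pools had pressures of 30 ± 3 mmHg. Each pool was hybridised to 1 array, the number of animals per pool is not stated, and no test or standard error can be had.

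Stratified squamous epithelium renews itself from a basal layer of dividing cells that make the keratin pair Krt5 and Krt14. Cells that leave this layer change their keratins, to Krt4 and Krt13 in the lining of the oesophagus and mouth, and then build a cornified envelope, in which loricrin, small proline-rich and late cornified envelope proteins are cross-linked by transglutaminases. In the healthy mouse airway, basal cells with Krt5 and Krt14 are found mainly in the trachea and large bronchi, and cornified layers are not a normal part of the lung.

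Values below are scaled intensities, the deposited intensities after each array was shifted to a common median. The noise floor was 276, the 50th percentile of all scaled values. The deposited values end at 50, which became 46.4 to 54.8 after scaling, and values there or elsewhere under the floor have no order. A ratio with 1 pool at the floor is a bound, and none is given where both are. Levels are compared between pools for 1 probe set at a time, apart from sums over marker lists, which also hold values under the floor. In whole lung, fewer cells of a type and less RNA per cell cannot be told apart.

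Of the 3 normal-pressure pools that serve as controls, wild type stood apart from the others. Of 14 kidney proximal tubule markers, 13 were above the floor in the wild-type pool, and 2 to 4 in each of the other pools; their summed level was 53217 in wild type and 7688 to 11101 elsewhere, of which Aqp1, a gene that lung vessels also express, gave 5297 to 7193. Between SM22-rtTA and uninduced BMPR2delx4+, the log2 ratio had an SD of 0.38 over the 8302 single-gene probe sets above the floor in all pools, and 2.34% of tested probe sets were at least 2-fold apart. Against uninduced BMPR2delx4+, wild type had an SD of 0.63 and 11.4% of probe sets at least 2-fold apart. Of the 11 club and airway secretory genes on the array, 8 or 9 were above the floor in each pool, and the lung label was checked on these.

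The upper-layer keratins of mucosa were high in both pools with raised pressure. Krt4, a type II keratin that partners Krt13, had a scaled intensity of 3748 in the induced pool and 47.7 in uninduced BMPR2delx4+, and of 7459 in hypoxia and 54.8 in wild type; SM22-rtTA was at 46.4. All 3 normal-pressure values are the lower limit of the deposited data. Krt4 was thus at least 13.6-fold higher with induction and at least 27.0-fold higher in hypoxia.

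Krt13, the type I partner, was at 3333 in the induced pool against 47.7 in uninduced BMPR2delx4+, and at 5984 in hypoxia against 74.3 in wild type, with SM22-rtTA at 46.4 (probe set 1422454_at). These are ratios of at least 12.1-fold and at least 21.7-fold. The other Krt13 probe set, 1437344_x_at, was dimmer, at 446 in the induced pool and 413 in hypoxia, with all 3 normal-pressure values at the lower limit (46.4 to 54.8). It separated the same pools, with bounds of at least 1.61-fold and at least 1.5-fold. Its suffix is the one with which the array's maker marks probes shared with other transcripts, so it may not read Krt13 alone.

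Krtdap, a small secreted peptide of suprabasal keratinocytes, was at 2448 in the induced pool against 47.7 in uninduced BMPR2delx4+, and at 3395 in hypoxia against 54.8 in wild type. SM22-rtTA was at 46.4. The bounds were at least 8.86-fold for induction and at least 12.3-fold for hypoxia. Mt4, a metal-binding metallothionein of stratified squamous epithelium, was at 1284 in the induced pool against 47.7 in uninduced BMPR2delx4+, and at 1186 in hypoxia against 54.8 in wild type, with SM22-rtTA at 46.4. Mt4 was at least 4.65-fold and at least 4.29-fold higher, and its 2 raised-pressure values lie close together.

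Of the envelope genes, Sprr3, Sprr1a and Lce3c were high in hypoxia and near or under the floor in the induced pool, while loricrin differed between its probe sets. Sprr3, a proline-rich envelope precursor of oesophageal epithelium, was at 1807 in hypoxia against 73.1 in wild type, at least 6.54-fold higher. In the induced pool it was at 201 against 57.6 in uninduced BMPR2delx4+, both under the floor, and SM22-rtTA was at 46.4.

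Sprr1a, a related envelope precursor that is also known as a stress-responsive gene in other tissues, was at 1072 in hypoxia against 390 in wild type, 2.75-fold higher. In the induced pool it was at 294 against 292 in uninduced BMPR2delx4+, and SM22-rtTA was at 286. The induced pool and both transgenic controls lay close together, just above the floor.

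Lce3c, a late cornified envelope protein, was at 3688 in hypoxia against 332 in wild type, 11.1-fold higher. In the induced pool it was at 349 against 180 in uninduced BMPR2delx4+, at least 1.26-fold, and SM22-rtTA was at 253. The induced value was close to that of wild type, so hypoxia alone stood clear of the normal-pressure pools. The Lce3c probe set, 1419317_x_at, carries the suffix with which the array's maker marks probes shared with other transcripts, and closely related Lce genes may contribute to it.

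Loricrin, the main protein of the epidermal envelope, had 3 probe sets that did not move together. Probe set 1420183_at, for which the annotation lists no accession, was at 2843 in the induced pool against 886 in uninduced BMPR2delx4+, 3.21-fold, and at 3917 in hypoxia against 618 in wild type, 6.34-fold; SM22-rtTA was at 877. Probe set 1448745_s_at, which the annotation ties to the loricrin RefSeq transcript, ran the other way in hypoxia. With induction its log2 ratio was -0.17, within the SD of 0.38 between the transgenic control pools. It was at 460 in the induced pool against 517 in uninduced BMPR2delx4+, and at 52.9, the lower limit, in hypoxia against 1006 in wild type, at least 3.64-fold lower, with SM22-rtTA at 936. The third, 1420184_at, also without an accession, was under the floor throughout, at 58.3 in the induced pool, 47.7 in uninduced BMPR2delx4+, 68.0 in hypoxia, 54.8 in wild type and 46.4 in SM22-rtTA. The direction of loricrin is therefore not settled by these arrays, and which probe set reads its transcript was not tested.

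**Figure D1:**
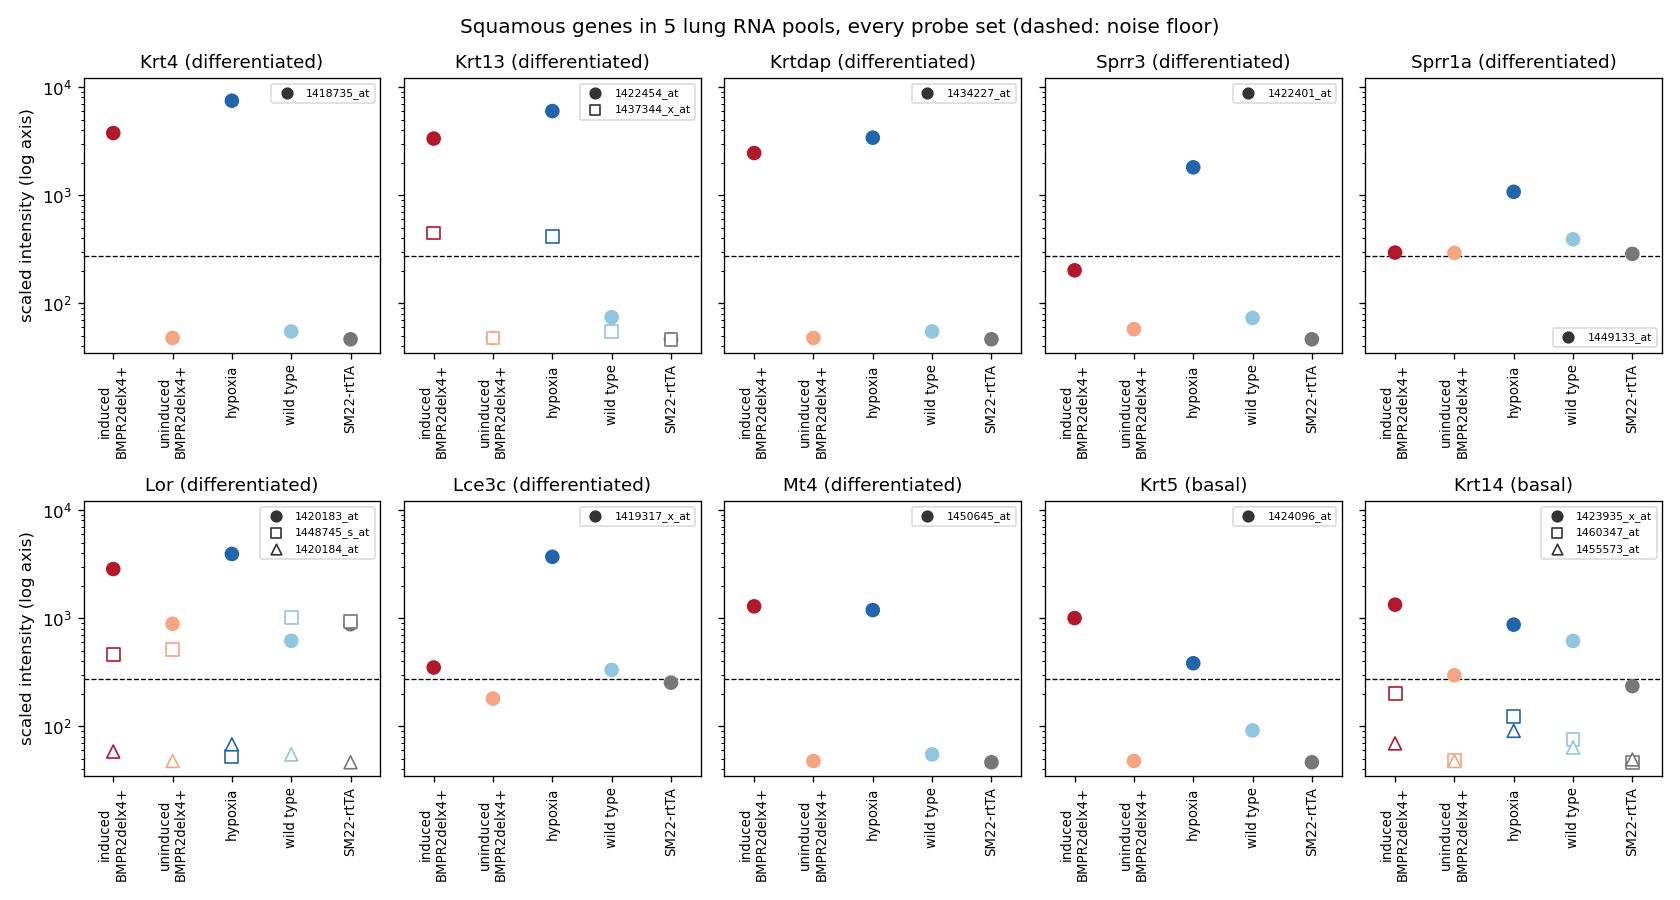
Scaled intensity (log axis) of every probe set of the 10 genes in the 5 pools, 1 array each; shapes tell probe sets apart, filled circles are the probe set with the highest mean, and the dashed line is the noise floor of 276. Krt4, Krt13, Krtdap and Mt4 are high in both raised-pressure pools, Sprr3, Sprr1a and Lce3c in hypoxia, Krt5 most in the induced pool, and the loricrin probe sets differ in direction.

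The basal keratins were highest in the induced pool. Krt5, the type II keratin of basal cells, was at 1000.4 in the induced pool against 47.7 in uninduced BMPR2delx4+, at least 3.62-fold higher. It was at 382 in hypoxia against 91.5 in wild type, and SM22-rtTA was at 46.4. The hypoxic value is above the floor and the wild-type value under it, which bounds the ratio at 1.38-fold or more.

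Krt14, its type I partner, was at 1331 in the induced pool against 296 in uninduced BMPR2delx4+, 4.5-fold higher (1423935_x_at). It was at 869 in hypoxia against 615 in wild type, 1.41-fold, and at 235 in SM22-rtTA. Wild type was above both transgenic controls here, at 2.08-fold over uninduced BMPR2delx4+, so the ratio of hypoxia depends on the control: it was 2.94-fold over uninduced BMPR2delx4+ and at least 3.15-fold over SM22-rtTA. This probe set also carries the suffix for shared probes. The other Krt14 probe sets were under the floor in every pool. Of these, 1460347_at was at 199 in the induced pool, 48.1 in uninduced BMPR2delx4+, 124 in hypoxia, 76.1 in wild type and 46.4 in SM22-rtTA, and 1455573_at at 69.4, 47.7, 90.6, 63.5 and 49.3 in the same pools.

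By count, 7 of the 15 probe sets were at least 2-fold higher in the induced pool than in uninduced BMPR2delx4+ (11 had a ratio), and 0 were 2-fold lower. Across the array 1.86% of the probe sets with a ratio were so much higher and 0.511% lower. The 7 were those of Krt4, Krt13 (1422454_at), Krtdap, Mt4, Lor (1420183_at), Krt5 and Krt14 (1423935_x_at), 5 of the differentiated layers and 2 of the basal layer. In hypoxia against wild type 8 of 15 were at least 2-fold higher (12 had a ratio), where 1.32% of the array's probe sets were, and 1 was 2-fold lower, the loricrin probe set 1448745_s_at, where 7.33% of the array's were. All 8 belonged to the differentiated layers. These shares describe genes picked for their levels in these comparisons and nothing is read from them.

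With 1 probe set per gene, the 1 with the highest mean, the differentiated-layer genes gave, as median log2 ratios, 2.22 for induction (7 with a ratio) and 3.09 for hypoxia (8). The gene missing from the first is Sprr3, under the floor in both pools, so the 2 medians are not over the same genes. Leaving it out raises the induction median over one that counts it as unchanged. Over all genes with a ratio the medians were 0.013 and 0.064. The 2 basal keratins had medians of 2.01 and 0.48. The difference between layers was 0.20 with induction and 2.61 in hypoxia; since many of these ratios are bounds, it is no bound itself. The basal value in hypoxia depends on the floor through Krt5: with it at the 30th percentile its log2 ratio against wild type was 1.53, past 2-fold.

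**Figure D2:**
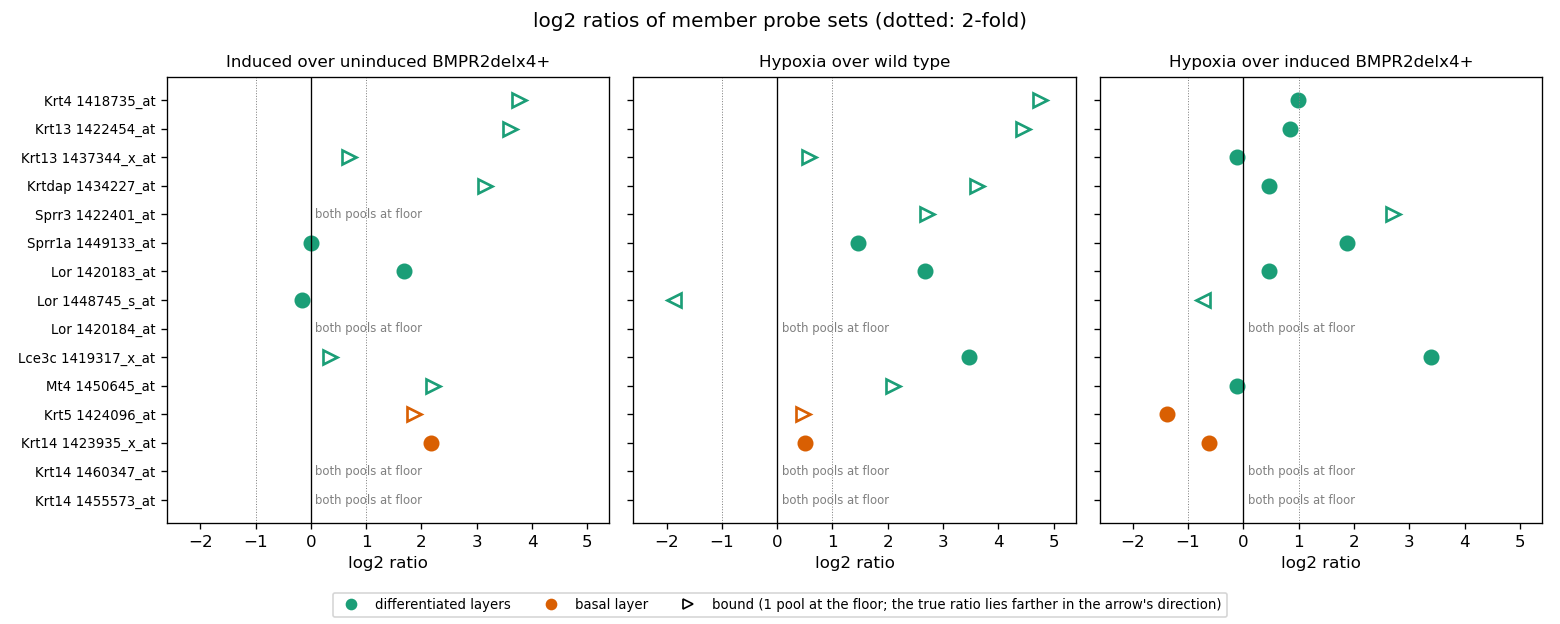
log2 ratio of each probe set (rows) for the induced over the uninduced BMPR2delx4+ pool, hypoxia over wild type, and hypoxia over the induced pool; green marks differentiated and orange basal genes, arrows mark bounds and dotted lines 2-fold. Lce3c, Sprr3 and Sprr1a lie to the right in both panels that involve hypoxia, with log2 ratios of 3.40, 2.71 and 1.87 over the induced pool, where Krt5 lies at -1.39.

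Set directly against each other, with no control pool involved, the raised-pressure pools differed most in 3 envelope genes and in Krt5. Lce3c was 10.6-fold, Sprr3 at least 6.54-fold and Sprr1a 3.65-fold higher in hypoxia than in the induced pool. Krt4 was 1.99-fold, Krt13 1.80-fold (1422454_at) and Krtdap 1.39-fold higher in hypoxia, and Mt4 differed least, with a log2 ratio of -0.11. Krt5 was 2.62-fold and Krt14 1.53-fold lower in hypoxia. The dimmer Krt13 probe set had a log2 ratio of -0.11, and of the loricrin probe sets 1420183_at was 1.38-fold higher and 1448745_s_at at least 1.67-fold lower in hypoxia.

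The differentiated-layer median was 0.92 and the basal median -1.0 in this comparison, against -0.004 over all genes. Of the 15 probe sets 3 were at least 2-fold higher in hypoxia, where 2.6% of the array's probe sets were, and 1 was 2-fold lower, where 3.09% were.

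Promoter windows were searched for letters of AP-1 (Fos and Jun proteins), because its binding sites are known features of envelope gene promoters. The 4 differentiated-layer windows shown were picked because they hold the letters given below. That of Krt5, which does not, is shown beside them. The windows, from RefSeq on GRCm38.p6, run from 250 bases before to 50 after the annotated gene start, 5′ to 3′ on the gene's strand. Capitals mark the letters TGANTCA, called AP-1 letters here, a pattern that reads the same on both strands. N is any base, which is looser than the usual AP-1 site, with C or G there.
Sprr1a (chr3:92485832-92486131, minus strand): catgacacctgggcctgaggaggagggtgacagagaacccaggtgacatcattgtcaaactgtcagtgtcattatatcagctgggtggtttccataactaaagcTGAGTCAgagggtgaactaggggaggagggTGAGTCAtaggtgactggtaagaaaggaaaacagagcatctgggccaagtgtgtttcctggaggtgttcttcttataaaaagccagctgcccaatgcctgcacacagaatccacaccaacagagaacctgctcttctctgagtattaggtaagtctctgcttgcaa
Lor (chr3:92083093-92083392, minus strand): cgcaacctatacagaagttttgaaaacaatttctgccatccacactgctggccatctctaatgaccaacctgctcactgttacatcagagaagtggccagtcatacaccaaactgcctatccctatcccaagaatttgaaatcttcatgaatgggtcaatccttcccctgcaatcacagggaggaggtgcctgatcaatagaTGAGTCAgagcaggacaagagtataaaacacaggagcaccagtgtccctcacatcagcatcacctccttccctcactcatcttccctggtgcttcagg
Krtdap (chr7:30787655-30787954, plus strand): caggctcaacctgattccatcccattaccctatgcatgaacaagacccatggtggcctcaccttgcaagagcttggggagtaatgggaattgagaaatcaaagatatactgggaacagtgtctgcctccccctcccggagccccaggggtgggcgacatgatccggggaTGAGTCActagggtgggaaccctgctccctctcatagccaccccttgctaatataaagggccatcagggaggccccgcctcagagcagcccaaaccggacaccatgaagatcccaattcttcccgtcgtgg
Krt13 (chr11:100121517-100121816, minus strand): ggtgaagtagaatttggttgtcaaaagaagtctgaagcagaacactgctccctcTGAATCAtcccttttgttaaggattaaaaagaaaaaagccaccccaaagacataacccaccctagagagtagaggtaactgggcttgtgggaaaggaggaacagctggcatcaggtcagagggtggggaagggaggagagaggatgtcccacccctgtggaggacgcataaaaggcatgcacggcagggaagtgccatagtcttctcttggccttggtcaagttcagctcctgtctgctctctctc
Krt5 (chr15:101712856-101713155, minus strand): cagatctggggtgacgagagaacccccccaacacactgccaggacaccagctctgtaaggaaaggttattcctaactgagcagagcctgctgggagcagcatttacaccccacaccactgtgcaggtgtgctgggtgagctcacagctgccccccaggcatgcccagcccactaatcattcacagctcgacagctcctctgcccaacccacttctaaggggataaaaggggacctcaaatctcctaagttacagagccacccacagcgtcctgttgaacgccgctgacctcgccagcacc

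Windows at the annotated start were found for 8 of the 10 genes, 7 of the differentiated layers and Krt5, but not for Krt4, and the Krt14 window lay at another start. The AP-1 letters were in 4 of the 7 differentiated windows, with 2 copies in Sprr1a and 1 each in Lor, Krtdap and Krt13, and not in those of Sprr3, Lce3c, Mt4 or Krt5; 7.81% of all 32851 windows hold them. The match nearest to the start began at -48 in Lor, -81 in Krtdap, -116 in Sprr1a and -196 in Krt13. The Krt13 match has A at N and so is not the usual site, while the others have G. The share of all windows is for the looser letters. TATAAA, on either strand and with no overlap with the AP-1 letters, was in 5 of the 7 differentiated windows and not in that of Krt5, against 13.6% of all windows. The AP-2 letters GCCNNNGGC were in 0 of 8, against 16.6% of all windows. A match is a description, not a binding site.

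Other genes of the same layers were read from lists written with earlier results of these arrays known. Of 50 listed envelope genes 30 were on the array and 22 above the floor in some pool. In hypoxia 5 of 22 with a ratio were at least 2-fold higher than in wild type and 0 lower, against 1.53% and 7% of all genes, with a median log2 ratio of 0.57. With induction 0 of 12 were 2-fold apart in either direction, where 1.95% of all genes were higher and 0.539% lower, and the median was 0.23. Some of these ratios are bounds with uninduced BMPR2delx4+ under the floor, so a 2-fold difference is not excluded for those genes.

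Lce3a, a neighbour of Lce3c in the same gene cluster, had the largest ratio of that list. It was at 498 in the induced pool against 82.7 in uninduced BMPR2delx4+, a bound of 1.80-fold or more. In hypoxia it was at 2471 against 103 in wild type, at least 8.95-fold. Lce1i was at 1395 in hypoxia against 604 in wild type, and Lce1b at 672 against 238. Tgm3, a transglutaminase that cross-links the envelope, was at 634 in hypoxia against 177 in wild type, at least 2.29-fold, and under the floor in the induced pool (227). Sciellin (Scel), another envelope precursor, was at 1506 in hypoxia against 581 in wild type; the induced pool was at 1262 and uninduced BMPR2delx4+ at 1084, so wild type was the low pool. Directly, 5 of 21 envelope genes were 2-fold higher in hypoxia than in the induced pool, where 2.58% of all genes were, and 0 lower, where 2.86% were, with a median of 0.68.

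Among epidermal proteases and inhibitors, Asprv1, the protease that processes filaggrin, was at 1793 in hypoxia against 54.8 in wild type, at least 6.49-fold. It was at 138 in the induced pool and 102 in uninduced BMPR2delx4+, both under the floor. The secreted inhibitor Slpi was at 4364 in hypoxia against 1365 in wild type, and at 1353 in the induced pool against 1864 in uninduced BMPR2delx4+. Klk7, a desquamation protease, was at 1368 in hypoxia against 669 in wild type, and the channel-activating protease Prss8 at 716 against 2301. In all, 3 of 7 of these genes were 2-fold higher and 1 lower in hypoxia, against 1.53% and 7% of all genes, and 0 of 5 were 2-fold apart with induction. The Prss8 difference rests on wild type, the high pool: uninduced BMPR2delx4+ was at 1025 and SM22-rtTA at 702. Klk7 was 1.39-fold higher in hypoxia than in uninduced BMPR2delx4+ (985) but 3.04-fold higher than in SM22-rtTA (450). Asprv1 and Slpi stayed over 2-fold higher against both other controls.

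Of the other basal-layer genes, Krt15 alone was 2-fold apart. Of 14 listed, 13 were on the array, and 1 was 2-fold higher in each comparison (of 7 with a ratio for induction and 9 for hypoxia). Over all genes, 1.95% were so much higher with induction and 1.53% in hypoxia. Krt15, a basal keratin of mucosa and hair follicle, was at 948 in the induced pool against 152 in uninduced BMPR2delx4+, and at 971 in hypoxia against 204 in wild type, bounds of 3.43-fold and 3.51-fold. Its log2 ratio of hypoxia over the induced pool was 0.03, where that of Krt5 was -1.39. The median log2 ratio of this list was -0.28 with induction (7 with a ratio), where that of Krt5 and Krt14 was 2.01. In hypoxia against wild type it was 0.22, and in hypoxia over the induced pool 0.17, each from 9 genes with a ratio. The rest were under the floor in both pools of the pair, and the medians do not speak for them.

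Desmosome genes, which hold squamous cells together, were 2-fold higher in 2 of 6 with induction, against 1.95% of all genes, and in 2 of 7 in hypoxia, against 1.53%. Plakophilin 1 (Pkp1) was at 1007 in the induced pool against 53.7 in uninduced BMPR2delx4+, and at 574 in hypoxia against 71.7 in wild type, at least 3.64-fold and at least 2.08-fold. Desmoplakin (Dsp) was at 1589 against 833 and at 1099 against 493 in the same order, and Perp at 629 against 313 and at 902 against 640. For Pkp1 all 3 normal-pressure pools were under the floor (SM22-rtTA 46.4), while Dsp and Perp were above it in all of them. Dsp was 1.32-fold higher in hypoxia than in uninduced BMPR2delx4+ and 1.59-fold higher than in SM22-rtTA (690), so its 2-fold difference in hypoxia holds against wild type only.

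Of 17 oesophageal and oral mucosa genes on the array, 2 of 12 were 2-fold higher with induction and 6 of 13 in hypoxia, against 1.95% and 1.53% of all genes, with 0 lower in either, against 0.539% and 7%. Calml3, an epithelial calmodulin, was at 792 in the induced pool against 160 in uninduced BMPR2delx4+, and at 784 in hypoxia against 148 in wild type. Dermokine (Dmkn) was at 1065 against 431 and at 1940 against 188 in those pairs. The lipid carrier Fabp5 and the aldehyde dehydrogenase Aldh3a1 were 3.40-fold and 3.64-fold higher in hypoxia, and 1.92-fold and 1.85-fold higher with induction. Ly6g6c was 2.11-fold and Il1rn 2.06-fold higher in hypoxia, and for Il1rn 1 of the 2 probe sets with a ratio had the opposite sign. Il1rn was under 2-fold higher against uninduced BMPR2delx4+ (867) and SM22-rtTA (965), and the other 5 stayed over 2-fold against both.

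Counts for keratins of other kinds were 0 in both comparisons, in lists too short to be told from the 1.95% and 1.53% of all genes that were 2-fold higher. Of 10 further epidermal and squamous keratins on the array 5 were above the floor in some pool and 0 were 2-fold apart in either comparison; Krt6a, induced in wounds, was at 344 in the induced pool against 270 in uninduced BMPR2delx4+, and at 605 in hypoxia against 429 in wild type. Krt80 was at 1691 against 2506 and at 2064 against 1367. The simple epithelial keratins of lung gave 0 of 4 in either, with Krt7 at 2420 against 3101 and at 3027 against 1858, and Krt8 at 2580 against 3470 and at 2276 against 1944. Hair and nail keratins gave 0 of 3 and 0 of 4 (Krt25, 583 against 606 and 787 against 886; Krt81, 404 against 281 and 701 against 720). Of 15 squamous transcription factors on the array, 0 of 7 and 0 of 8 were 2-fold apart, with Klf4 at 1572 against 1625 and at 2508 against 1755, and Klf5 at 780 against 757 and at 781 against 611. Directly, 1 of 9 was 2-fold lower in hypoxia than in the induced pool, against 2.86% of all genes. This was Sox2, a factor of oesophageal and airway basal cells, at 293 in hypoxia and 1073 in the induced pool, 3.66-fold lower. Sox2 was at 549 in uninduced BMPR2delx4+, 106 in wild type and 280 in SM22-rtTA, and 1.96-fold higher with induction. Of the other metallothioneins on the array, Mt1, Mt2 and Mt3, 0 of 3 were 2-fold apart in either. Mt1 was at 2590 against 2583 and at 1362 against 2446, and Mt3 at 1972 against 1354 and at 2393 against 2801. Directly, 1 of 3 metallothioneins was 2-fold lower in hypoxia than in the induced pool, Mt2 (2.03-fold), against 2.86% of all genes. Of the further epidermal and squamous keratins 1 of 5 was 2-fold higher, Krt79 (at least 2.48-fold), against 2.58%. Simple epithelial and hair and nail keratins gave 0 of 4 each.

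**Figure D3:**
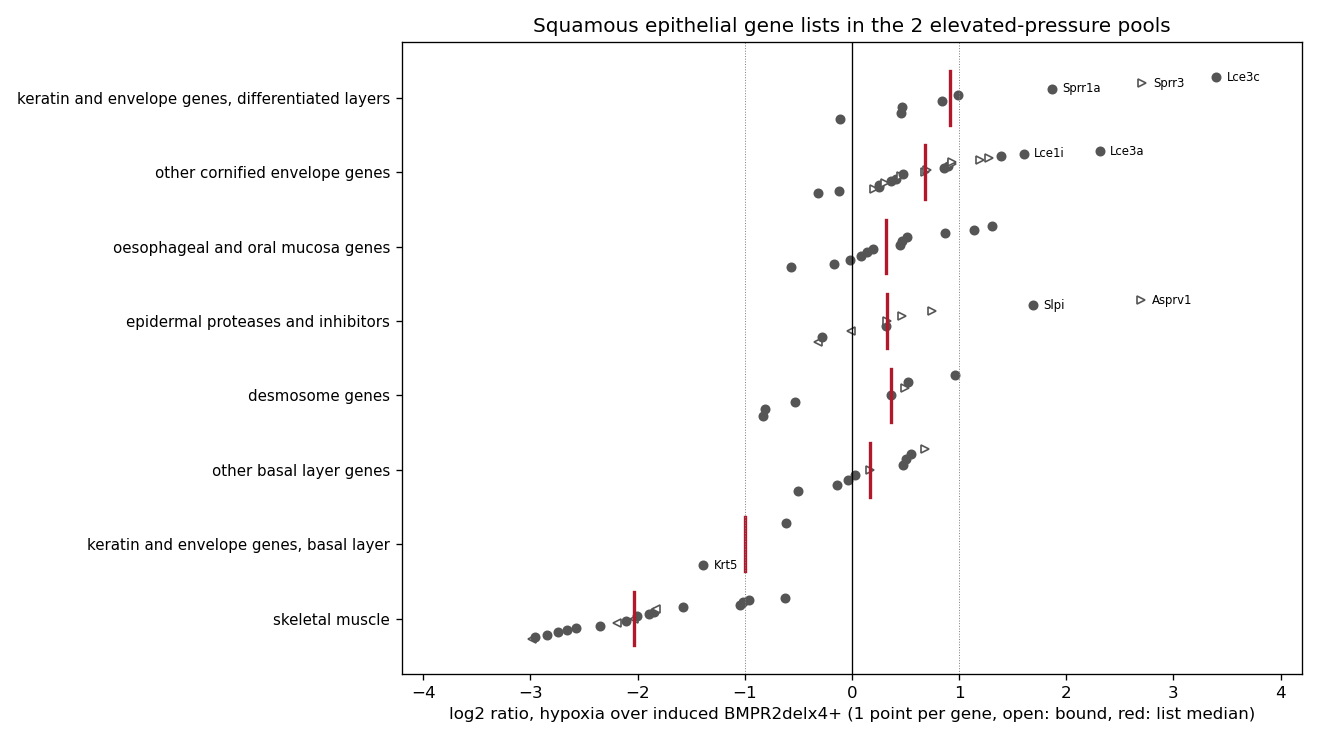
log2 ratio of hypoxia over the induced BMPR2delx4+ pool for each gene with a ratio, by gene list (rows); open arrows are bounds, red bars list medians and dotted lines 2-fold. Differentiated-layer genes have a median of 0.92 and other envelope genes 0.68, the 2 basal keratins -1.0 and skeletal muscle genes -2.04.

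Genes of skeletal muscle, a tissue that also forms the wall of the mouse oesophagus, were high in the same pools. All 19 markers on the array were above the floor in the induced pool, against 9 in uninduced BMPR2delx4+, and 15 were in hypoxia, against 6 in wild type and 4 in SM22-rtTA. Their summed level was 80035 in the induced pool against 7567 in uninduced BMPR2delx4+, and 21310 in hypoxia against 5553 in wild type, with 5076 in SM22-rtTA. With induction 18 of 19 were 2-fold higher, against 1.95% of all genes, and in hypoxia 9 of 15, against 1.53%. In hypoxia 1 was lower, against 7% of all genes: Pvalb, at 284 against 764 in wild type, with uninduced BMPR2delx4+ at 293 and SM22-rtTA at 154. Myl1 was at 7038 in the induced pool against 403 in uninduced BMPR2delx4+ and at 1117 in hypoxia against 54.8 in wild type, and Eno3 at 4392 against 288 and at 738 against 315. Between the raised-pressure pools, 17 of 19 muscle genes were at least 2-fold lower in hypoxia, against 2.86% of all genes. Krt5 was 2.62-fold lower in hypoxia too, and Krt14 1.53-fold, which is under the 2-fold mark. Krt15 was level between these pools (log2 ratio 0.03), and the other basal-layer genes had a median of 0.17. Most differentiated-layer genes were higher there, though Mt4 and 1 probe set each of Krt13 and Lor were not. The part of tissue outside the lung in the squamous values was not tested.

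Markers of other possible sources were read in the same way. With induction 1.95% of all genes were 2-fold higher and 0.539% lower, and in hypoxia 1.53% and 7%. Counts of 0 in lists this short cannot be told from these shares. Many markers were also under the floor: 4 of 13 cartilage, 3 of 6 ciliated and 4 of 8 thymic markers were above it in some pool. Tracheal cartilage markers summed to 3051 in the induced pool against 2698 in uninduced BMPR2delx4+ and to 4239 in hypoxia against 4072 in wild type (SM22-rtTA 2505), with 0 of 2 and 0 of 3 genes 2-fold apart; Col9a2 was at 1424 against 1111 and at 2195 against 2213, and Chad at 601 against 584 and, under the floor, at 253 against 161. Ciliated cell markers gave 0 of 3 in either, with Tppp3 at 3020 against 2907 and at 3196 against 1908, and Foxj1 at 947 against 888 and at 1498 against 1149. Thymic epithelial markers gave 0 of 4 and 0 of 3, with Tbata at 454 against 400 and at 744 against 612, and Dll4 at 368 against 450 and at 519 against 464 (its other probe set had the opposite sign in hypoxia). Of the same list, Prss16 was above the floor in the induced pool alone, at 288 against 47.7 in uninduced BMPR2delx4+, a bound of 1.04-fold. It was at 125 in hypoxia, 73.5 in wild type and 65.0 in SM22-rtTA. Thyroid markers were all under the floor in the induced and uninduced pools, and 1 of 6 was above it in hypoxia against 4 in wild type (Slc5a5, 392 against 542; Iyd, 119 against 406). Club and airway secretory genes gave 0 of 9 with induction and 2 of 8 lower in hypoxia, where 7% of all genes were, Bpifa1 at 703 against 2555 and Bpifb1 at 405 against 1176. Wild type was the high pool for both: uninduced BMPR2delx4+ was at 1331 and 708, and SM22-rtTA at 1008 and 547, all under 2-fold from hypoxia. Proximal tubule markers were 2-fold lower in hypoxia in 11 of 13, against 7% of all genes, and 2-fold apart in 0 of 5 with induction. The 6 largest were Miox, at 113 in hypoxia against 10416 in wild type, Slc34a1 (258 against 7944), Fbp1 (235 against 7647), G6pc (111 against 2584), Cubn (108 against 1991) and Lrp2 (189 against 1907).

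Likeness to Krt4 was measured as the root mean square difference between mean-centred log2 profiles over the 5 pools. It was taken among 7697 genes above the floor in at least 2 pools, with values under the floor set to it. Differences between pools under the floor therefore do not count. Krt13 (0.13) and Krtdap (0.46) were nearest, and among the other genes of the set Mt4 followed at 1.09, Lor at 1.09, Lce3c at 1.37, Krt14 at 1.48, Krt5 at 1.69 and Sprr1a at 1.72. Sprr3 was above the floor in 1 pool and was not ranked. The 10 nearest other genes were Acta1 (0.80), Tnni2 (0.94), Tnnc2 (0.95), Crct1 (1.05), Ada (1.06), Dmkn (1.08), Ckm (1.13), Lce3a (1.18), Mylpf (1.21) and Xist (1.24). Acta1, Tnni2, Tnnc2, Ckm and Mylpf encode proteins of striated muscle and were higher in the induced pool than in hypoxia, Acta1 at 5064 in hypoxia and 10435 in the induced pool. Crct1, a gene of the epidermal differentiation cluster, was at 1735 in hypoxia and 819 in the induced pool, with normal-pressure values of 46.4 to 72.7. Ada, adenosine deaminase, which is abundant in the keratinised upper digestive tract of the mouse, was at 2329 in hypoxia and 657 in the induced pool, with normal-pressure values of 70.7 to 147. Xist, the RNA that coats the silenced X chromosome of females, was at 1403 in hypoxia and 1845 in the induced pool, at 689 in uninduced BMPR2delx4+, 122 in wild type and 98.4 in SM22-rtTA, so it was above the floor in the raised-pressure pools and in 1 control. Sex makeup of the pools is not given in the labels, and its part in the squamous values was not tested.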

How the data were processed

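Linear intensities, 1 per probe set (22626) and array, were used as the authors deposited them; the sources used here do not state the summary algorithm, background correction or scaling behind these intensities. Per the labels, each array held biotin-labelled RNA pooled per condition. No value lay under 50. The number of arrays limits the precision.

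Intensities were put on the log2 scale and each array was shifted to a common median, taken over 9046 probe sets that exceeded their array's 50th percentile in all 5. The floor was the 50th percentile of all scaled values. Names came from the platform annotation, symbols updated by gene ID (20351 of 20380 single-gene probe sets matched). The probe set with the highest mean stood for its gene in lists. A feature counted as apart at 2-fold, with the higher pool above the floor. Named list genes were, per list, up to 6 that were apart with the largest ratio, or else the 2 with the highest mean, and the 10 nearest to Krt4. Pvalb, Sox2 and Mt2 were named after their values were seen, each as the 1 gene of its list that was lower. Krt79 was named in the same way, as the 1 gene of its list that was higher. Aqp1 was named for its part in a sum, and Prss16 after its values were seen. The ratio step was tested on simulated data. Python 3.11.15, pandas 2.3.3 and matplotlib 3.10.9 were used.

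The genes, lists and comparisons were chosen with earlier results of these data known. Alternatives covered scaling, floor, gene summary, control pool and fold.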

Additional observations from a re-analysis of the deposited data

How the results depend on the processing

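No paired analysis was possible because each group is 1 array. A log2 value was counted as moved where it differed by more than 0.38, the SD between transgenic control pools, and a count where it differed by over 1.5 times; the counts of 7 and 8 probe sets ranged from 6 to 10 and from 7 to 10 and were not moved. For single genes, 224 of 284 values stayed within that spread. The sign changed in 8, of which 5 were of loricrin: -0.17 with induction, -1.86 in hypoxia and -0.74 in hypoxia over induction with probe sets that have an accession, and -0.23 in hypoxia and -0.62 in hypoxia over induction with the mean of its probe sets. The others were Krt13 in hypoxia over induction with the dimmest probe set (-0.11, against 0.84) and, near 0, Sprr1a with induction with intensities as deposited (-0.02) and quantile normalization (-0.06). Scaling as deposited or by quantiles moved none of the values by more than 0.38.

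Of the medians, the differentiated one with induction (2.22) was 2.70 with a pseudocount of 50, 1.45 with the dimmest probe set per gene and 2.68 without Lor. In hypoxia (3.09) it was 3.62 and 2.64 with the floor at the 30th and 70th percentile, 3.74 with the pseudocount, 2.61 with the mean of probe sets, 2.71 with the dimmest and 3.47 without Lor. The basal median with induction (2.01) was 2.54, 1.06 and 2.71 with the lower floor, the higher floor and the pseudocount. In hypoxia (0.48) it was 1.02 with the lower floor, 1.04 with the pseudocount and 1.06 with SM22-rtTA or both transgenic pools as control. The difference between layers with induction (0.20) was 1.09 with the higher floor, -0.40 with the dimmest probe set and 0.67 without Lor, so its sign is not settled. In hypoxia (2.61) it was 2.14 with the higher floor or the mean of probe sets, 2.10 with either other control and 2.99 without Lor. Hypoxia over induction gave a basal median of -1.39 with the mean or the dimmest probe set, and a difference of 2.38 with the dimmest (1.92 in the report's setting). A floor moves these values by construction, since most control levels lie under it; the cause of the others was not tested. The settings without Lor, the accession rule, the other controls for genes of the further lists and all settings of the direct comparison were chosen after seeing the data.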
